A study of Sus scrofa domesticus with 6 samples.

Results

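Cadherins and protocadherins were followed in the mandibular condyle, the jaw side of the temporomandibular joint, of miniature pig embryos on gestational days 45 and 85. The group holds every row of the deposited gene table whose gene name is a numbered cadherin (CDH), a protocadherin (PCDH), FAT1 to FAT4, DCHS1 or DCHS2, or CELSR1 to CELSR3. This rule uses names alone, and it found 41 genes among 25322 rows. No row was named FAT4, CELSR2 or CDH5. A further 48 rows without a gene name carry the Gene Ontology term for homophilic cell adhesion, so family genes may be missing from the group. Each age had 3 libraries, made from total RNA of tissue labelled as cartilage, with chondrocytes and osteocytes as the stated source. The labels name no treatment apart from the ossification of the cartilage itself, no genotype and no pooling. They call the material primary cells, while their protocol grinds tissue pieces, and they do not say that the libraries come from separate animals. The p-values below therefore measure only the spread between these libraries, which may be technical.

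Cadherins are membrane proteins that hold neighbouring cells together through extracellular repeats that need calcium. Classical cadherins of types I and II bind catenins inside the cell and, through them, the actin cytoskeleton. N-cadherin (CDH2) is known for its part in the mesenchymal condensations that precede cartilage, and CDH11 as the cadherin of osteoblasts and other mesenchymal cells. Protocadherins bind more weakly and are best known from neurons. FAT and dachsous cadherins bind each other across cell borders and feed planar cell polarity and Hippo signalling, and CELSR cadherins belong to the core planar polarity system.

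Total counts per library ran from 12546729 to 16559616. Levels within a gene are given as CPM, the count scaled to library size, after TMM, a correction for differences in library composition, and 1 count was worth 0.0612 to 0.0773 CPM. Levels of different genes are set side by side only as the deposited FPKM, which divide by gene length. Fold changes are day 85 over day 45, and each adjusted p-value is that of the quasi-likelihood test in edgeR, with Benjamini-Hochberg adjustment over all 15022 tested genes. A gene is said to have risen or fallen where its adjusted p was under 0.05. Day 85 replicate 2 stood apart from the other libraries of its age, with a median Spearman correlation of 0.934 with them against 0.956 and 0.959 for replicates 1 and 3. Results are therefore also given without it. The day 85 libraries kept in that fit, replicates 1 and 3, were the ones rich in skeletal muscle markers. A list of these summed to 37271 and 30614 CPM there, against 2463 CPM in replicate 2. The part of this makeup in calls made only without replicate 2 was not tested. Summed over a list, chondrocyte markers marked the labelled tissue at day 45 and were lower in every day 85 library. COL2A1, the main cartilage collagen, stood at 4999, 4107 and 3733 CPM at day 45, then at 28.8, 1074 and 50.6 CPM at day 85. DMP1, a matrix protein of osteocytes, was present in all libraries, from 123 to 1909 CPM. In bulk tissue, fewer cells of a type and less RNA per cell cannot be told apart.

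Nearly all genes found by the rule were detected, at very unequal levels. Of the 41 genes, 39 had at least 1 count in every library and 38 passed the filter on low counts. CDH1, CDH9 and CDH16 did not pass it and were not tested. By mean FPKM over all libraries, 9 genes lay at 10 or more, 19 between 1 and 10, and 13 under 1. CDH15 (58.4), CDH11 (53.6), DCHS1 (42.7) and FAT1 (27.7) led in mean FPKM. PCDH12 (18.6), CDH2 (16.4), CDH13 (14.7), CDH24 (11.7) and PCDH1 (10.2) followed. The order within the leading genes was not firm, since CDH15 ranged from 8.68 to 118 FPKM between libraries. CDH11 ranged from 33.9 to 77.6 FPKM and DCHS1 from 26.7 to 56.4 FPKM, so their ranges overlapped. In raw counts, which favour long genes, CDH11, DCHS1 and FAT1 held 72.8%, 79.6% and 68.2% of all counts of the group in the day 45 libraries. They held 51.5%, 71.3% and 63.0% in the day 85 libraries, so the ages overlapped in this share.

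**Figure D1:**
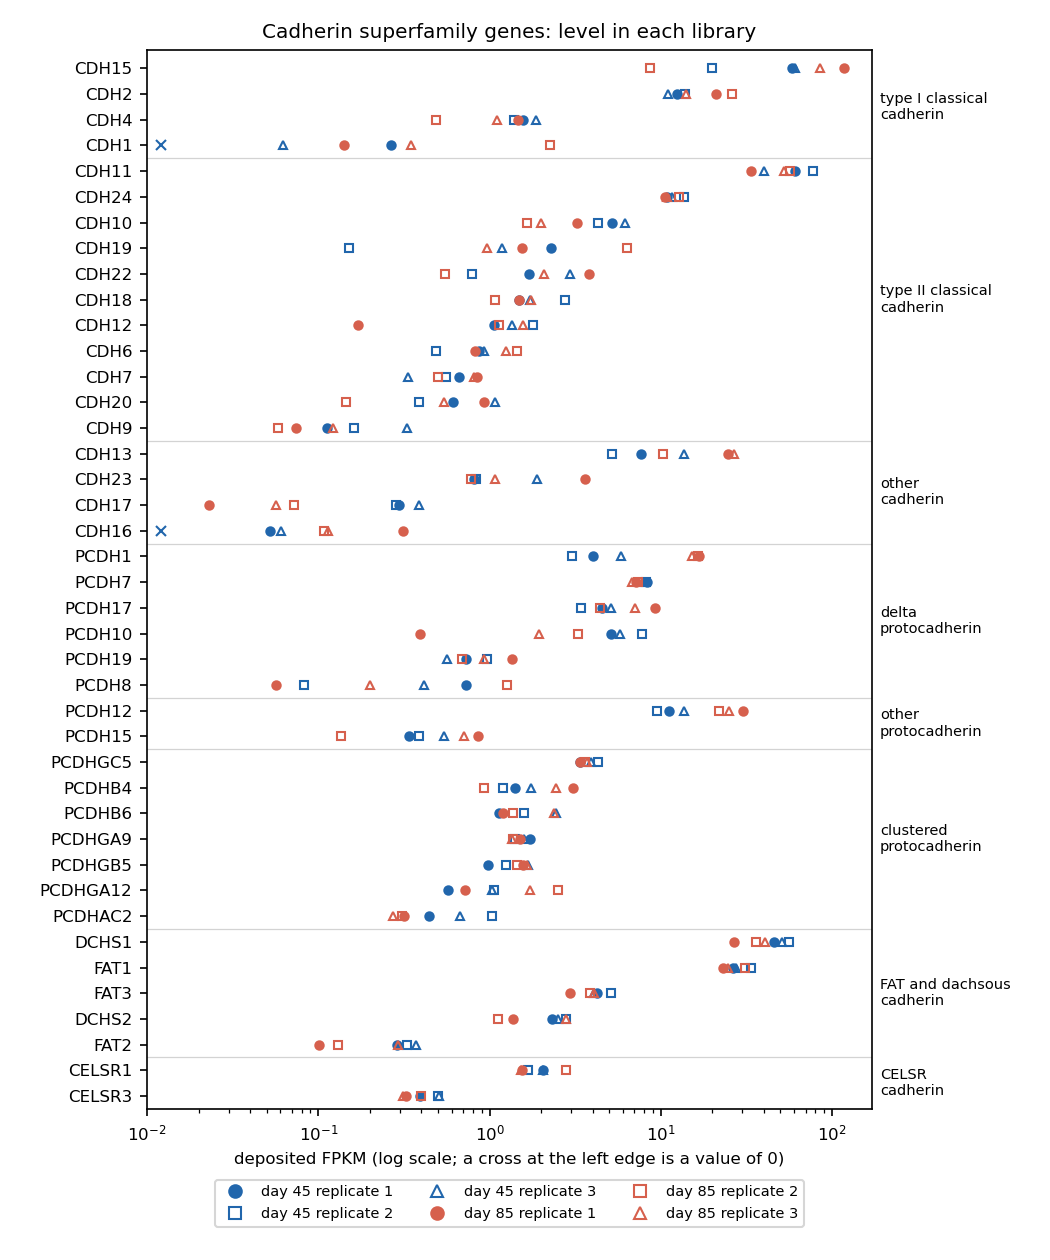
Deposited FPKM (horizontal, log scale) of the 41 cadherin superfamily genes, by structural class, with 1 symbol per library (blue, day 45; red, day 85; circle, square and triangle for replicates 1, 2 and 3; a cross at the left edge is a value of 0). CDH15 is the widest spread of the abundant genes, from 8.68 to 118 FPKM, whereas CDH24 stays between 10.5 and 13.6 FPKM.

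With age, 2 of the 38 tested genes rose and 2 fell. PCDH1 and PCDH12 rose, and CDH10 and CDH17 fell. CDH17 passed the filter on low counts through its day 45 libraries alone. Over all tested genes 3.90% rose and 2.66% fell (6.56% in all), so for a group of this size these counts lie near the background. Of the 38 genes, 18 leaned upward and 20 downward, and their median log2 fold change was -0.02 against 0.02 over all tested genes. At an unadjusted p under 0.05 the count was 5 higher and 4 lower, against 15.8% and 13.3% of all tested genes. The ages did not overlap upward in 2 genes and downward in 6, where 17.4% and 17.6% of all tested genes did so (35.0% in all). Without day 85 replicate 2, edgeR called 5 genes higher and 3 lower, against 12.3% and 10% of all genes in that fit (22.3% in all). DESeq2 on all libraries called 5 higher and 4 lower, against 12.6% and 10.8% (23.3% in all). Leaving out each of the other 5 libraries in turn left 0 or 1 gene higher and 0 lower in edgeR. Over the whole table these fits called 0 to 118 of 15215 to 15389 tested genes, in either direction, so calls were lost table-wide. An unadjusted p under 0.05 was reached there by 2 to 4 genes of the group upward and 3 to 6 downward. Of all genes in those fits, 9.79% to 13.5% were higher and 8.66% to 11.6% lower at that level.

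**Figure D2:**
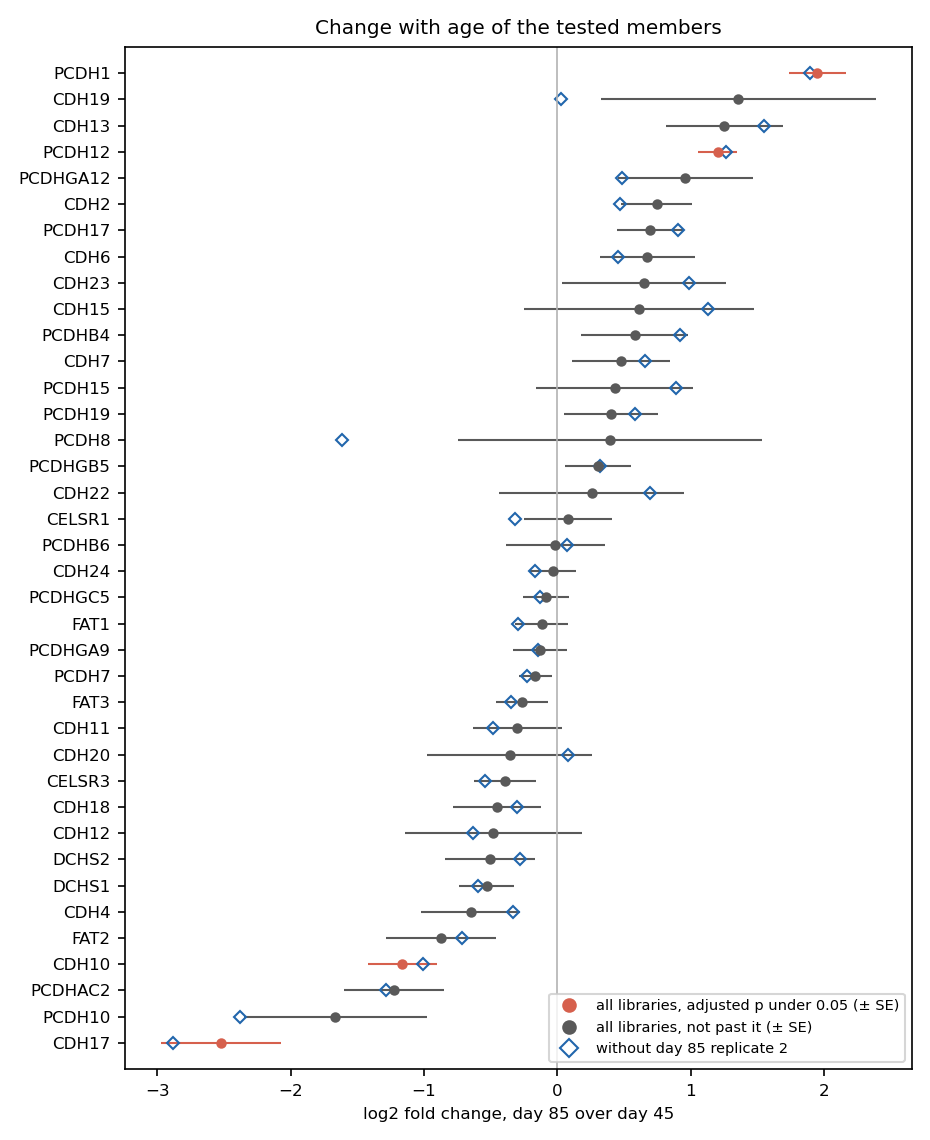
Log2 fold change of the 38 tested genes (horizontal; filled points with SE, all 6 libraries; red where the adjusted p was under 0.05) and the same without day 85 replicate 2 (open diamonds). PCDH1 and PCDH12 moved little without that library (1.95 to 1.90 and 1.20 to 1.27), whereas CDH19 moved from 1.36 to 0.03 and PCDH8 from 0.40 to -1.62.

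Among type I classical cadherins, 0 of the 3 tested genes passed the threshold, and 1 was higher at an unadjusted p under 0.05. That gene was CDH2, N-cadherin, at 45.8, 51.9 and 37.0 CPM at day 45, then at 73.7, 101 and 50.8 CPM at day 85. The day 85 values reached higher, but the lowest of them lay just under the highest of day 45. Its log2 fold change was 0.74 with an SE of 0.26 (adjusted p = 0.125). DESeq2 called CDH2 higher at adjusted p = 0.0200, and without day 85 replicate 2 edgeR gave 0.47 (adjusted p = 0.136). CDH4, R-cadherin, known from the retina, was low, at 3.67, 3.32 and 3.99 CPM and then 3.25, 1.20 and 2.57 CPM. Its ages did not overlap, but the difference did not pass (log2 change -0.65, SE 0.37, adjusted p = 0.287).

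CDH15, M-cadherin of myoblasts and muscle satellite cells, split the libraries of each age rather than the ages. It stood at 137, 47.3 and 130 CPM at day 45, then at 264, 21.4 and 197 CPM at day 85. Replicate 2 was the lowest library at both ages, and the ages overlapped fully (log2 change 0.61, SE 0.86, adjusted p = 0.669). A list of skeletal muscle markers showed the same libraries high and low. Summed over its 13 matched genes, it ran from 3912 to 8954 CPM at day 45 and was 37271, 2463 and 30614 CPM at day 85. None of these markers was at 0 in any library, and 0 of 13 passed the threshold in edgeR, with 6 higher at an unadjusted p under 0.05 and 5 called by DESeq2. Of all tested genes, 3.90% rose in edgeR, 15.8% were higher at that unadjusted p, and DESeq2 called 12.6% higher. Without day 85 replicate 2, edgeR called 10 of the 13 higher, against 12.3% of all genes in that fit. The log2 fold change of CDH15 there was 1.13 (adjusted p = 0.122). Per 1000 CPM of that list, CDH15 had 18.7, 12.1 and 14.5 CPM at day 45, then 7.07, 8.69 and 6.42 CPM at day 85. All day 85 libraries thus held less CDH15 per muscle marker count than any day 45 library. An exact permutation test of 3 libraries against 3 cannot go below a p of 0.1. What share of the CDH15 values comes from muscle tissue was not tested.

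CDH1, E-cadherin of epithelia, had 5, 0 and 1 counts at day 45 and 2, 41 and 6 at day 85. A count of 0 in day 45 replicate 2 allows up to 0.216 CPM by counting error alone. At 2.73 CPM, day 85 replicate 2 was the highest library. In the epithelial list of 12 matched genes, 1 of 8 tested genes rose (CLDN7) and 0 fell in edgeR, with 1 lower at an unadjusted p under 0.05. DESeq2 called 1 higher and 2 lower, and edgeR without day 85 replicate 2 called 2 higher and 2 lower. Its summed level was 36.2, 13.6 and 33.6 CPM at day 45, then 19.9, 46.5 and 23.4 CPM at day 85, also highest in that library. Of its keratins, KRT8 stood there at 16.3 CPM, against 0.155 and 0.198 CPM in the other day 85 libraries, and ESRP1 was at 0 counts in all of the day 85 libraries. Their part in the CDH1 value was not tested.

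Type II classical cadherins held the second most abundant gene of the group, CDH11, and several of the rarest, with means of 0.143 to 53.6 FPKM. Of 10 tested, 0 rose and 1 fell. CDH11 led them, at 633, 821 and 383 CPM at day 45, then at 336, 618 and 538 CPM at day 85. Its libraries varied about as much within an age as between ages (log2 change -0.30, SE 0.33, adjusted p = 0.580). CDH24, a catenin-binding type II cadherin, was the steadiest of the leading genes, at 36.0, 46.1 and 35.3 CPM and then 33.5, 45.1 and 36.0 CPM. Its log2 fold change was -0.03 with an SE of 0.17 (adjusted p = 0.915).

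CDH10, a type II cadherin best known from the brain, fell 2.24-fold. It stood at 12.4, 10.5 and 13.6 CPM at day 45, then at 7.42, 4.20 and 4.75 CPM at day 85, and the highest day 85 library lay under the lowest of day 45. The log2 fold change was -1.16 with an SE of 0.26 (adjusted p = 0.0468). The gene runs from 12626760 to 12737775 on chromosome 16 by the table's own coordinates (build not given in the sources used here). DESeq2 also called it (adjusted p = 0.000181), and it passed without day 85 replicate 2 (-1.01, adjusted p = 0.0312). Without each of the other 5 libraries its adjusted p ran from 0.0593 to 0.170, with log2 fold changes of -1.47 to -1.07. With library totals as the scaling, its adjusted p was 0.0570. The genes of the group nearest to it on chromosome 16 are also type II cadherins. CDH18, CDH12 and CDH6 had fitted log2 differences of -0.45, -0.48 and 0.68 (SEs 0.33, 0.66 and 0.35), and none of these passed. CDH9 had 2 to 10 counts per library.

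CDH19, known from Schwann cell precursors, was set by single libraries. It stood at 5.33, 0.361 and 2.55 CPM at day 45, then at 3.48, 15.6 and 2.24 CPM at day 85. Day 85 replicate 2 was the highest library and day 45 replicate 2 the lowest (log2 change 1.36, SE 1.03, adjusted p = 0.421). SOX10, the transcription factor of the Schwann lineage, stood at 2.51, 0.0721 and 1.31 CPM and then 2.01, 8.33 and 0.725 CPM. The whole Schwann cell and neuronal list of 15 matched genes summed to 221 to 434 CPM at day 45 and to 273, 2374 and 245 CPM at day 85. In that list, 0 of 14 tested genes rose and 1, the neurofilament gene NEFM, fell, and the neuronal gene ELAVL3 was at 0 in 4 libraries. DESeq2 called 5 lower, as many as had an unadjusted p under 0.05, and edgeR called 4 lower without day 85 replicate 2. Without day 85 replicate 2 the log2 fold change of CDH19 was 0.03 (adjusted p = 0.985). Set against 1000 CPM of the Schwann cell and neuronal list, CDH19 had 12.3, 1.63 and 8.45 CPM at day 45. At day 85 it had 12.7, 6.57 and 9.13 CPM, and the ages overlapped in this ratio. The part of nerve tissue in CDH19 was not tested. The remaining type II genes, CDH7, CDH20 and CDH22, lay at 0.333 to 9.12 CPM with adjusted p-values of 0.419, 0.732 and 0.831.

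**Figure D3:**
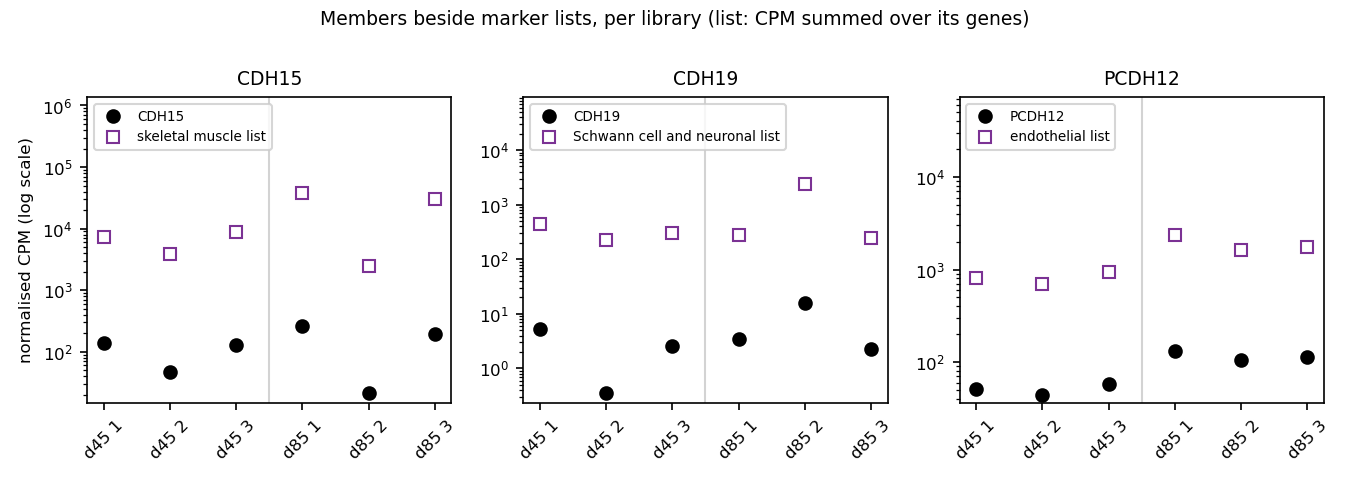
Level in each library (vertical, normalised CPM, log scale) of CDH15, CDH19 and PCDH12 (filled circles) and of the summed marker list of muscle, of Schwann cells and neurons, and of endothelium (open squares). CDH15 and the muscle list are lowest in replicate 2 at each age, CDH19 and its list are highest in day 85 replicate 2, and PCDH12 and the endothelial list are higher in all day 85 libraries.

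Of the other cadherins, CDH17 fell from a low level. It passed the filter on low counts through its day 45 libraries alone, where it was high, so the filter itself favoured a fall. This cadherin of liver and intestine had 17, 14 and 19 counts at day 45 and 1, 4 and 3 at day 85, or 1.04, 1.01 and 1.24 CPM and then 0.0773, 0.267 and 0.198 CPM. The ages were far apart, and the fitted change was 5.74-fold (log2 change -2.52, SE 0.45, adjusted p = 0.0324). The gene runs from 45950525 to 46015911 on chromosome 4. It passed without day 85 replicate 2 (-2.88, adjusted p = 0.0158), and had adjusted p-values of 0.0828 to 0.138 without each of the other 5 libraries. A filter of 1 CPM in 3 libraries removed it. CDH16, a cadherin of kidney, had 0 to 9 counts per library.

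CDH13, T-cadherin, which is held in the membrane by a lipid anchor and binds adiponectin, stood at 18.7, 12.8 and 30.6 CPM at day 45, then at 56.9, 26.4 and 64.7 CPM at day 85. Day 85 replicate 2 lay within the day 45 range, while the other day 85 libraries lay above it. The difference did not pass with all libraries (log2 change 1.25, SE 0.44, adjusted p = 0.126). It passed without that library (1.55, adjusted p = 0.0275) and in DESeq2 (adjusted p = 0.00770). Per 1000 CPM of the muscle list, CDH13 had 2.54, 3.26 and 3.41 CPM at day 45, then 1.53, 10.7 and 2.11 CPM at day 85, with day 85 replicate 2 far above the rest. Per 1000 CPM of the endothelial list it had 23.3, 18.4 and 32.2 CPM, then 24.0, 16.2 and 36.7 CPM, and the ages overlapped. The part of either tissue in CDH13 was not tested. CDH23, a cadherin of the hair cell tip link, had 8.14, 8.58 and 17.4 CPM and then 34.7, 8.27 and 10.8 CPM, with day 85 replicate 1 alone above the rest (adjusted p = 0.516). PCDH15, its partner in that link, was at 1.90, 2.24 and 2.81 CPM and then 4.64, 0.800 and 3.96 CPM (adjusted p = 0.658).

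PCDH1, a delta protocadherin known from airway epithelium, had the largest rise of the 38 tested genes, 3.87-fold. It stood at 13.0, 10.03 and 17.5 CPM at day 45, then at 51.6, 56.1 and 49.2 CPM at day 85. The lowest day 85 library was well above the highest of day 45, and day 85 replicate 2 did not differ in direction from the others. The log2 fold change was 1.95 with an SE of 0.21 (adjusted p = 0.0160). It passed in DESeq2 (adjusted p = 1.03e-18) and without day 45 replicate 3, day 85 replicate 2 and day 85 replicate 3 (adjusted p = 0.0411, 0.00374 and 0.0485). Without day 45 replicates 1 and 2 and day 85 replicate 1 it had adjusted p-values of 0.109, 0.0720 and 0.0557. The log2 fold change stayed between 1.77 and 2.18 in these 6 fits.

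PCDH12, a protocadherin of endothelial cell contacts, rose 2.30-fold. It stood at 51.1, 44.1 and 57.2 CPM at day 45, then at 132, 106 and 113 CPM at day 85, with no overlap. The log2 fold change was 1.20 with an SE of 0.15 (adjusted p = 0.0181). In DESeq2 the adjusted p was 8.63e-13, and without day 85 replicate 2 edgeR gave 1.27 (adjusted p = 0.00350). Without each of the other 5 libraries its adjusted p ran from 0.0502 to 0.110, with log2 fold changes of 1.09 to 1.29. The endothelial list moved with it, with 10 of 15 tested genes higher, none lower and a median log2 fold change of 1.40. Over all tested genes 3.90% rose and 2.66% fell. The list summed to 801, 695 and 948 CPM at day 45 and to 2374, 1634 and 1762 CPM at day 85, and none of its genes was at 0. Per 1000 CPM of the endothelial list, PCDH12 had 63.8, 63.4 and 60.4 CPM at day 45, then 55.5, 64.8 and 64.3 CPM at day 85. The ages overlapped in this ratio, which ranged less than PCDH12 itself. The part of endothelial tissue in PCDH12 was not tested.

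**Figure D4:**
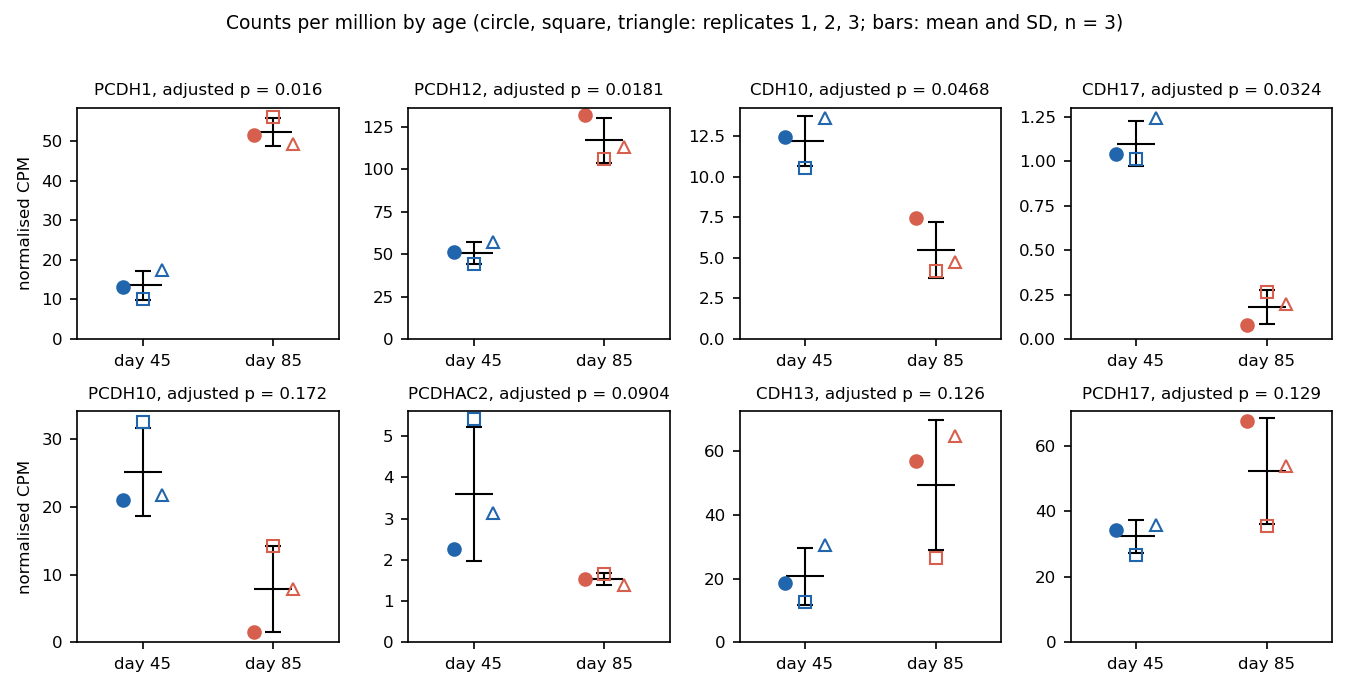
Normalised CPM (vertical, from 0) by age of the 4 genes that passed the threshold (top row) and of 4 that did not (bottom row), with 1 symbol per library and bars for mean and SD (n = 3). In the top row no day 85 library reaches the day 45 range, whereas in CDH13 day 85 replicate 2 (26.4 CPM) falls within it.

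The other delta protocadherins did not pass with all libraries, and of the 6 in this class 1 rose and 0 fell. PCDH10, known from the developing brain, stood at 21.0, 32.5 and 21.7 CPM at day 45, then at 1.55, 14.1 and 7.91 CPM at day 85. The ages did not overlap, but the day 85 libraries spread widely (log2 change -1.67, SE 0.69, adjusted p = 0.172). Without day 85 replicate 2 it passed (-2.38, adjusted p = 0.0410). PCDH17 stood at 34.4, 26.6 and 35.9 CPM and then at 67.6, 35.4 and 53.9 CPM, with day 85 replicate 2 inside the day 45 range (0.69, SE 0.25, adjusted p = 0.129). It passed without that library (0.91, adjusted p = 0.0146) and in DESeq2 (adjusted p = 0.0304). Per 1000 CPM of the endothelial list, PCDH17 had 43.0, 38.3 and 37.8 CPM at day 45, then 28.5, 21.7 and 30.6 CPM at day 85. The part of endothelial tissue in PCDH17 was not tested. PCDH7 was the steadiest of the class, at 32.5, 32.7 and 29.2 CPM and then 27.0, 30.6 and 26.6 CPM (-0.17, SE 0.12, adjusted p = 0.406). PCDH8, known from the paraxial mesoderm, had 5.67 CPM in day 85 replicate 2 against 0.232 and 0.857 CPM in the other day 85 libraries (adjusted p = 0.846). PCDH19 was at 1.18 to 2.94 CPM (adjusted p = 0.479).

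Within the group, PCDH1 and PCDH12 are next to each other, while genes outside the group were not placed between them. They lie 55 kb apart on chromosome 2, at 149690657 to 149696708 and 149752166 to 149765761, at the end of the stretch that holds the clustered protocadherins. Genes of the alpha and gamma clusters each join their own first exon to exons shared by the cluster, while beta genes are single exons that closely resemble each other. Counts of single genes are therefore uncertain wherever reads fell in shared or near-identical sequence. The 9 genes of the stretch span 1189 kb in the deposited coordinates. Of the 7 clustered genes, 0 rose and 0 fell, with a median log2 fold change of -0.02. All had low levels, with means of 0.508 to 3.71 FPKM.

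PCDHGC5 was the most abundant of them, at 8.94, 11.5 and 9.55 CPM at day 45, then at 8.50, 9.998 and 9.76 CPM at day 85 (log2 change -0.09, SE 0.17, adjusted p = 0.771). PCDHB4 stood at 4.35, 3.75 and 4.91 CPM and then 9.04, 3.00 and 7.45 CPM, with day 85 replicate 2 the lowest library of all (0.58, SE 0.40, adjusted p = 0.370). Without that library it passed (0.92, adjusted p = 0.0303). PCDHAC2, at the other end of the stretch, stood at 2.27, 5.41 and 3.14 CPM and then 1.55, 1.67 and 1.38 CPM. Its ages did not overlap, and the difference did not pass in edgeR (-1.23, SE 0.37, adjusted p = 0.0904) but did in DESeq2 (adjusted p = 0.0180). The row of PCDHAC2 runs from 148577006 to 148760494. It spans an unnamed row assigned to the alpha gene PCDHA13, at 148628895 to 148631589. Whether its counts come from PCDHAC2 alone was not tested. PCDHB6, PCDHGA9, PCDHGB5 and PCDHGA12 had fitted log2 differences of -0.02, -0.13, 0.31 and 0.96 (SEs 0.37, 0.21, 0.24 and 0.51.

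**Figure D5:**
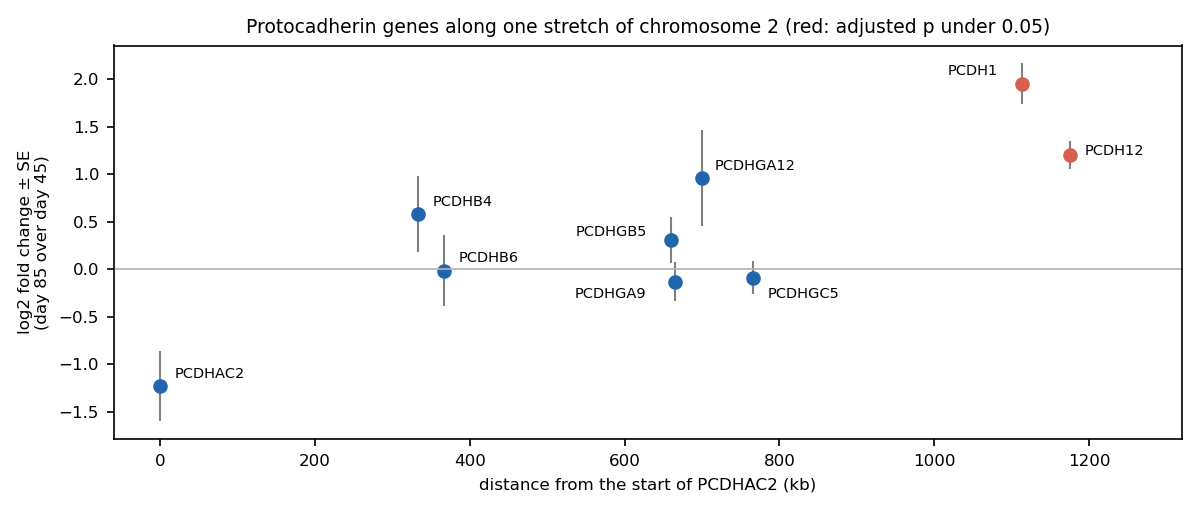
Log2 fold change with SE (vertical) of the 9 protocadherin genes on chromosome 2 against distance in kb from the start of PCDHAC2 (horizontal; red where the adjusted p was under 0.05). The 7 clustered genes lie between -1.23 and 0.96 and did not pass, while PCDH1 and PCDH12, 1114 and 1175 kb along, lie at 1.95 and 1.20.

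All 5 FAT and dachsous cadherins had negative log2 fold changes, as had 7240 of all 15022 tested genes. The median of the 5 was -0.51, and 0 passed the threshold in edgeR, with 1 lower at an unadjusted p under 0.05. DCHS1, the dachsous cadherin that pairs with FAT4, stood at 466, 587 and 475 CPM at day 45, then at 260, 387 and 413 CPM at day 85. The ages did not overlap, but the difference did not pass in edgeR (log2 change -0.53, SE 0.21, adjusted p = 0.150). DESeq2 called it lower at adjusted p = 0.0485. FAT1, a giant cadherin that acts on the actin cytoskeleton and cell polarity, stood at 395, 509 and 376 CPM and then 329, 485 and 366 CPM (-0.12, SE 0.20, adjusted p = 0.724). Its ages overlapped nearly completely, and without day 45 replicate 2 its log2 fold change was 0.027. FAT3, DCHS2 and FAT2 had fitted log2 differences of -0.26, -0.51 and -0.87 (SEs 0.20, 0.34 and 0.41). The stretch of FAT1 that the deposited counts and FPKM imply is 14672 bases long, the longest of the group.

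Of the CELSR cadherins, CELSR1 stood at 3.31, 2.74 and 3.01 CPM and then 2.40, 4.73 and 2.44 CPM (log2 change 0.08, SE 0.33, adjusted p = 0.893). CELSR3 stood at 4.10, 5.27 and 4.84 CPM and then 3.25, 4.33 and 3.23 CPM (-0.39, SE 0.23, adjusted p = 0.299). The ages overlapped in both. The length implied for CELSR1 was 1586 bases, against 10235 for CELSR3, so the FPKM of these related genes (means of 1.94 and 0.406) rest on gene models of unlike extent. CELSR1 was also the only one of the 41 genes whose row lacked the Gene Ontology terms for calcium ion binding and for homophilic cell adhesion. The other 40 carried both terms, which 2.43% and 0.470% of all rows of the table carry.

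Across the group, day 85 replicate 2 was at least 2-fold below both other day 85 libraries in 7 genes and at least 2-fold above both in 3. CDH15, CDH4, CDH22, CDH20, CDH13, PCDH15 and PCDHB4 were low there, and CDH1, CDH19 and PCDH8 were high. Some of these rest on few counts, such as CDH20 with 5 in day 85 replicate 2, and CDH1 with 2 and 6 in the other day 85 libraries. The share of all genes that differed so in that library was not counted, so these numbers do not set the group apart. The genes that passed the threshold were in neither set, but such a spread within an age itself makes passing unlikely.

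Catenins link classical cadherins to actin, and 3 of the 10 tested rose while none fell. Over all tested genes 3.90% rose and 2.66% fell. CTNND1, p120-catenin, which stabilises cadherins at the membrane, rose 1.38-fold from 196 ± 3.38 to 272 ± 6.48 CPM (log2 change 0.47, SE 0.10, adjusted p = 0.0462; SD, n = 3). Its relative ARVCF rose from 163 ± 25.4 to 290 ± 33.3 CPM (0.83, adjusted p = 0.0372). JUP, plakoglobin, which also serves desmosomes, rose from 116 ± 1.66 to 169 ± 11.3 CPM (0.54, adjusted p = 0.0391). Each of these passed without day 85 replicate 2 as well (adjusted p = 0.0271, 0.00973 and 0.0207). CTNNB1, beta-catenin, had 593, 580 and 600 CPM and then 543, 652 and 503 CPM (adjusted p = 0.796), and CTNNA1, alpha-catenin, had 282, 271 and 301 CPM and then 293, 340 and 299 CPM (adjusted p = 0.510).

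Of 16 tested partners of adherens junctions and cortical actin, 0 passed, while DESeq2 called 5 higher and 1 lower, the same counts as at an unadjusted p under 0.05. Among 16 genes of cadherin shedding and processing, 2 rose and 0 fell in edgeR. DESeq2 called 2 higher and 2 lower, as did edgeR without day 85 replicate 2, and 2 lower had an unadjusted p under 0.05. The proprotein convertase PCSK6 was lower in both (log2 fold change -1.21 with adjusted p = 0.0893 in edgeR and 0.00212 in DESeq2, and -1.71 with adjusted p = 0.00374 without that library). PSEN2, a presenilin of the gamma-secretase that cuts shed cadherins, rose from 38.1 ± 8.30 to 112 ± 19.9 CPM (log2 change 1.56, adjusted p = 0.0200). The metalloprotease ADAM15 rose from 61.5 ± 6.19 to 96.2 ± 9.87 CPM (0.64, adjusted p = 0.0425). ADAM10, the main sheddase of classical cadherins, had 64.8, 59.4 and 25.5 CPM and then 43.2, 111 and 86.5 CPM (adjusted p = 0.362). Of 9 tested transcription factors known for switching between E- and N-cadherin, 0 passed, while DESeq2 called 1 higher and 2 lower and an unadjusted p under 0.05 was reached by 2 on either side.

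Of 24 tested partners of FAT and dachsous cadherins and genes of the Hippo pathway, 2 rose and 1 fell, which became 5 and 1 in edgeR once day 85 replicate 2 was left out. LIX1L fell from 175 ± 10.1 to 108 ± 9.41 CPM (log2 change -0.69, adjusted p = 0.0299). AMOTL2, an angiomotin that binds YAP, and the kinase TAOK2 rose (0.77 and 0.55, adjusted p = 0.0449 and 0.0491). The effectors YAP1 and WWTR1 had log2 fold changes of -0.15 and -0.03 (adjusted p = 0.488 and 0.890). Of 17 planar cell polarity genes, the receptor FZD6 and the ligand WNT5B rose (1.04 and 1.39, adjusted p = 0.0462 and 0.0379) and 0 fell in edgeR. DESeq2 called 2 higher and 3 lower there (PTK7, ROR2 and WNT5A), 4 lower had an unadjusted p under 0.05, and edgeR without day 85 replicate 2 called 2 higher and 1 lower. Of all tested genes, DESeq2 called 12.6% higher and 10.8% lower, and 13.3% were lower at that unadjusted p. The median over these lists lay at 0.30 for catenins, 0.23 for adherens junction partners, 0.03 for shedding, -0.18 for the transcription factors, 0.27 for the Hippo list and -0.12 for planar polarity, against 0.02 over all tested genes. The calls in these lists were not counted without each single library.

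Other marker lists gave the makeup around these values. Of 15 chondrocyte markers 0 rose and 3 fell, of 10 macrophage markers 4 rose and 0 fell, and of 12 osteoclast, 11 osteoblast and 11 fibroblast markers 0 passed in edgeR. DESeq2 called 8 osteoclast and 3 osteoblast markers higher and 2 fibroblast markers lower, and 11 and 3 higher and 2 lower had an unadjusted p under 0.05. Without day 85 replicate 2, edgeR called 12 chondrocyte markers lower. The summed chondrocyte list did not overlap between ages, at 15489 to 19622 CPM at day 45, then at 2131, 7548 and 3946 CPM at day 85. The osteoclast list peaked in day 85 replicate 2, at 14206 CPM against 2009 and 2442 CPM in the other day 85 libraries. The part of these shifts in cell makeup in any cadherin value was not tested.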

How the data were processed

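RNA of 6 libraries, 3 per age, was depleted of ribosomal RNA and its second cDNA strand degraded, per the labels' protocols. The submitters' processing notes list HISAT2. The program that counted, its strand setting, the build and the annotation are not stated in these sources. The authors deposited raw read counts and FPKM per gene, per the file headers. For 10748 genes with at least 50 counts in each library, FPKM was a constant per gene times the count over the library total, within 0.00123%. The test on counts ran in R 4.3.3 with edgeR 4.0.16 (genes kept by filterByExpr, minimum count 10, library sizes over the genes kept, TMM, robust quasi-likelihood F test, age as the only factor). The SE is the log2 fold change divided by the square root of F. On simulated data the fit recovered most of the larger and few of the smaller changes, with more false calls than its nominal rate. All 41 names were held by 1 row each. The members and lists were chosen with earlier results of these data known. Values per library are given for members past the threshold, the 2 most abundant by FPKM of each class (3 for classical cadherins), those at least 2-fold apart without overlap at 1 CPM or more, and those called without day 85 replicate 2. CDH1, CDH19 and PCDH8 were added after their values were seen. Alternatives were other scalings and filters, DESeq2 1.42.0, limma-voom (limma 3.58.1), a replicate block, summed rows and leaving out each library. Library sizes over all rows were added after the data were seen. No pair of libraries was a duplicate, with a chi-square per degree of freedom of at least 20.2.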

Additional observations from a re-analysis of the deposited data

How the results depend on the processing

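Over RLE and upper-quartile scaling, no filter, limma-voom, summed rows and library sizes over all rows, the counts of members higher and lower stayed at 2 and 2. Library totals alone left 1 lower, since CDH10 lost its call, and so did the filter of 1 CPM in 3 libraries, which removed CDH17 from the test. DESeq2 called 5 higher and 4 lower, among 3834 genes in all against 986. Leaving out single libraries gave 0 to 5 members higher, 0 to 3 lower and 0 to 3412 genes in all. The replicate numbers are not shown to pair the libraries. Same-numbered libraries had deviations correlated at 0.0128, 0.250 and 0.0404, and not every library correlated best with its own number. With the replicate block, 3 members were higher, 0 lower and 682 genes called. There CDH13 passed (adjusted p = 0.0426), and CDH10 and CDH17 did not (0.0567 and 0.0581).

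Direction changed in members that did not pass in any of these fits. PCDH8 had log2 fold changes of -0.19 in limma-voom and -0.18 with the replicate block. Leaving out single libraries gave it a range of -1.62 to 1.12. The ranges were -0.40 to 0.72 for CDH22, -0.28 to 1.09 for CDH23, -0.17 to 0.10 for CDH24, -0.95 to 0.080 for CDH20, -0.29 to 0.027 for FAT1, -0.18 to 0.025 for PCDHGC5, -0.36 to 0.26 for PCDHB6 and -0.32 to 0.24 for CELSR1. The cause was not tested. Depth limits the 23 members under 10 CPM in every library.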

Other observations

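The deposited table leaves 6 further rows without a gene name that a table of gene IDs and symbols assigns to this family, and which the naming rule does not take in. Of these, 3 passed the filter and 0 passed the test. PCDHGB1 stood at 3.00, 4.04 and 4.06 CPM at day 45 and at 5.26, 5.33 and 6.99 CPM at day 85, without overlap (log2 fold change 0.66, SE 0.23, adjusted p = 0.124 in edgeR's quasi-likelihood test). PCDHGA4 stood at 3.06, 3.25 and 3.21 CPM and then 3.25, 2.40 and 3.96 CPM (0.01, adjusted p = 0.979). A second row assigned to DCHS2, on chromosome 8 at 79147591 to 79151780, stood at 2.82, 2.38 and 2.81 CPM and then 1.47, 0.867 and 2.04 CPM (-0.87, SE 0.35, adjusted p = 0.158). CDH3, P-cadherin, had 0 to 24 counts per library, with the most in day 85 replicate 2, the library that also held the most CDH1. PCDHA13 and PCDHB1 had 5 counts or fewer in every library.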
